A study of Rattus norvegicus with 3 samples.

Results

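Regions that differed in captured methylated DNA between pairs of newborn rat liver libraries were examined on chrUn, the unplaced part of the rat assembly rn4. The members are all regions of the 3 deposited lists whose chromosome is given as Un. They number 2615 of 95306 regions, namely 934 of 35998 in MLP vs. C, 783 of 33730 in MLP vs. MLP-F and 898 of 25578 in MLP-F vs. C. The study asked how a low protein diet of the dam, with or without extra folate, affects DNA methylation in the offspring. Liver DNA of male Wistar pups at 1 day of age was pooled into 1 library per group. Group C came from dams on the normal diet, MLP from dams on the low protein diet and MLP-F from dams on the low protein diet with folate. The labels give 6 animals per pool, the methods give a larger number, and the methods state that each group came from a single litter, so that diet and litter cannot be told apart.

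DNA methylation in mammals is found mainly on cytosines that precede a guanine (CpG). In MBD-seq, a protein domain that binds methylated CpG captures sheared DNA, and regions that are rich in methylated CpG give more reads. Unplaced sequence is DNA that was assembled but could not be assigned to a chromosome. In builds such as rn4 the unplaced pieces were joined end to end with gaps into one artificial chromosome, in no biological order, so that a distance on chrUn is a distance in the genome only within one piece. Such sequence is typically rich in repeats and in duplicated segments, to which a read may align in several places. The authors kept 1 alignment per read pair, the best one or none.

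Each list gives regions where the first-named library exceeded the second in MACS, a program that calls regions of read enrichment in one library against another. The score of a region is 10 times the −log10 of its p, and the lowest scores are about 50. The lists carry no false discovery rate. The paper refers to the deposited collection as one at a wider false discovery rate than its own limit, which cannot be checked from the lists. The study set a stricter limit on the false discovery rate for its differentially methylated regions. A region listed here, in MLP-F vs. C as in the other lists, thus need not be one of those. Scores were read only against other regions of the same list, since they depend on the depth of both libraries, and the lists carry no read counts. Regions higher in the second library were not analysed here. With 1 library per group there is no replicate error, and neighbouring regions are not replicates, so no test was made. Intervals are 95% Wilson intervals and cover counting error only. The lists share libraries in pairs. MLP is the first library of 2 lists, C is the second library of 2 lists, and MLP-F is first in one list and second in another.

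The chrUn regions made up 2.59% (2.44 to 2.76) of the MLP vs. C list, 2.32% (2.17 to 2.49) of MLP vs. MLP-F and 3.51% (3.29 to 3.74) of MLP-F vs. C. Per Mb of the span up to the last listed position, which is 75.8 Mb for chrUn, the densities were 12.3, 10.3 and 11.8 regions in that order. On chr1 to chr20 together they were 13.3, 12.4 and 9.51 regions per Mb. Thus chrUn was denser than 5 of the 20 chromosomes in MLP vs. C, than 2 in MLP vs. MLP-F and than 17 in MLP-F vs. C. The span counts the gaps between pieces, whose length is not in the lists. By length covered, chrUn held 2.93%, 2.56% and 4.57% of the base pairs of the 3 lists.

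The chrUn regions were longer than those of chr1 to chr20 in every list. Their median length was 740.5 bp in MLP vs. C, against 670 bp on chr1 to chr20 and 639 to 716.5 bp over the single chromosomes. It was 779 bp in MLP vs. MLP-F, against 722 bp and a range of 694 to 769.5 bp. It was 719 bp in MLP-F vs. C, against 655 bp and a range of 632 to 693 bp. The chrUn median was above that of all 20 chromosomes in each list. On chrX the median was longer than on chrUn in MLP vs. C, at 795 bp, and in MLP vs. MLP-F, at 825.5 bp, and shorter in MLP-F vs. C, at 642 bp.

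The difference was greater in the upper tail of length. In MLP-F vs. C, 45 chrUn regions were 2 kb or longer, which is 5.01% (3.77 to 6.64), against 0.602% over the whole list. The highest share among chr1 to chr20 was 1.56%, on chr12. In MLP vs. C there were 23 such regions, 2.46% (1.65 to 3.67), against 0.792% over the list. The highest share among chr1 to chr20 was 1.21%, on chr10. In MLP vs. MLP-F there were 24, 3.07% (2.07 to 4.52), against 1.35% over the list. The highest share among chr1 to chr20 was 2.40%, on chr12. On chrX the shares were 1.81% in MLP vs. C, 0.940% in MLP vs. MLP-F and 0.8% in MLP-F vs. C. The chrX share in MLP vs. C lies within the chrUn interval of that list. The long regions of MLP-F vs. C held 19.4% of the chrUn base pairs in that list, against 1.70% on chr1 to chr20, where 106 regions reached this length. In the other lists this share was 8.33% against 2.39% in MLP vs. C and 8.65% against 4.26% in MLP vs. MLP-F. The long regions lay in 18, 16 and 23 windows of 1 Mb in MLP vs. C, MLP vs. MLP-F, MLP-F vs. C in turn. No window held more than 4, 4 and 8 of them, and the 8 of MLP-F vs. C lay from 8 to 9 Mb. At 5 kb or more, MLP-F vs. C had 5 regions on chrUn and 5 on the 20 chromosomes together, while MLP vs. C had 1 and 2, and MLP vs. MLP-F had 1 and 9. Of the 5 chrUn regions of MLP-F vs. C, those of 14245, 6504 and 6427 bp lay in a single stretch of 60073 bp.

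**Figure D1:**
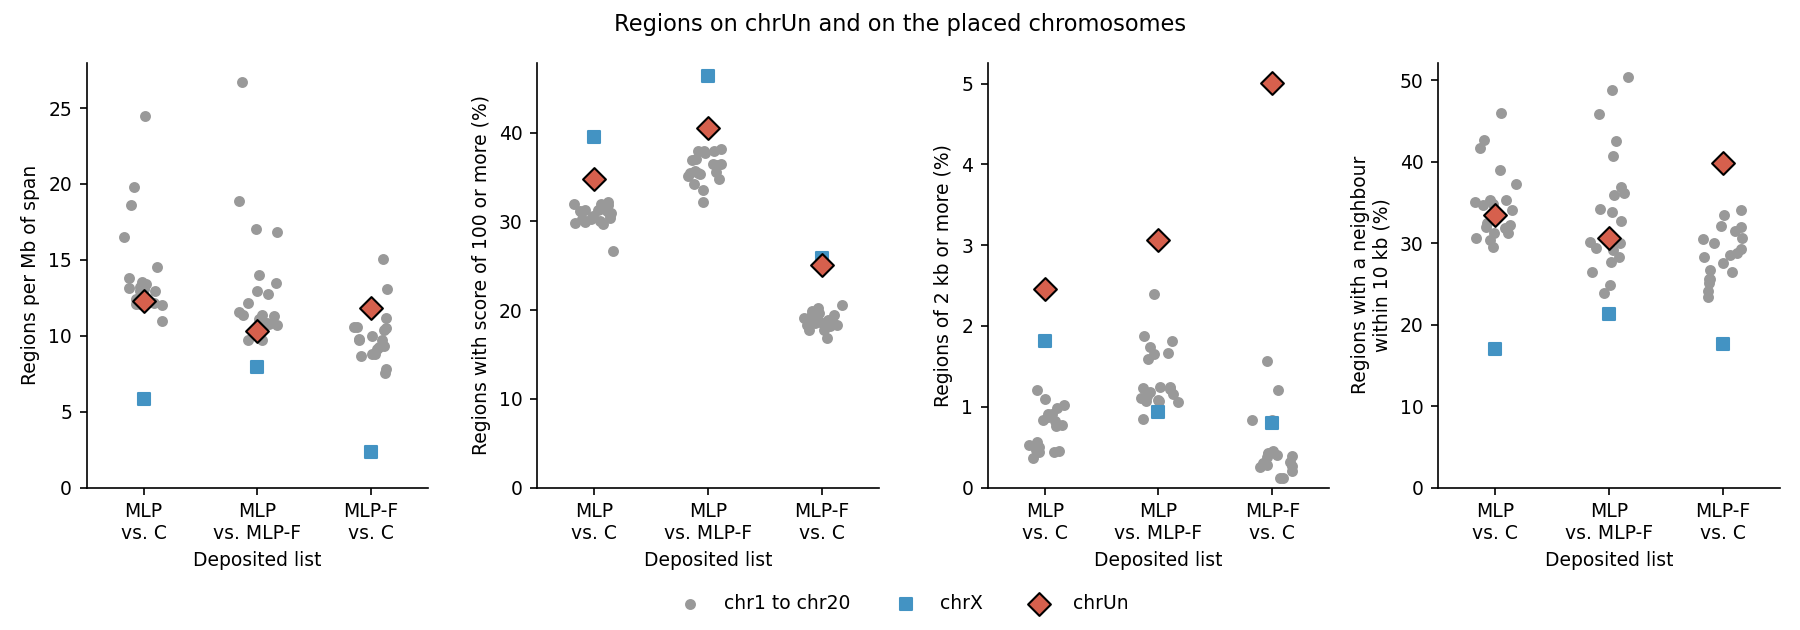
The panels show regions per Mb of span, the percent of regions with a score of 100 or more, the percent of 2 kb or more and the percent with another region of the same list within 10 kb, for each deposited list; grey points are chr1 to chr20, the square is chrX and the diamond is chrUn. The diamond lies above all 20 grey points for long regions and for scores of 100 or more in each list, and for close neighbours in MLP-F vs. C alone, at 39.9%.

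The scores on chrUn were also higher than on chr1 to chr20. The median score was 82.3 in MLP vs. C against 77.0 on chr1 to chr20, 84.6 against 81.4 in MLP vs. MLP-F and 73.0 against 69.3 in MLP-F vs. C, each above the medians of all 20 chromosomes. A score of 100 or more was given to 325 chrUn regions of MLP vs. C, 34.8% (31.8 to 37.9), against 31.1% over the whole list. In MLP vs. MLP-F there were 317, 40.5% (37.1 to 44.0), against 36.8%. In MLP-F vs. C there were 225, 25.1% (22.3 to 28.0), against 19.1%. In the lists with MLP first, the lower end of the interval lies close to the share of the whole list, which includes chrUn. The interval counts each region as independent, so this comparison is not a test. On chrX the shares were 39.6%, 46.4% and 25.9%, higher than on chrUn in each list.

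Long chrUn regions had the higher scores. The median score of regions of 2 kb or more was 170 in MLP vs. C against 81.1 for shorter ones, 180 against 83.8 in MLP vs. MLP-F and 129 against 71.0 in MLP-F vs. C. Within length classes the difference between chrUn and chr1 to chr20 varied. Among regions under 500 bp, scores of 100 or more were found in 25.6% on chrUn and 23.8% on chr1 to chr20 in MLP vs. C. In MLP vs. MLP-F the share was lower on chrUn, at 22.5% against 23.2%, and in MLP-F vs. C it was 18.7% against 17.1%. Among regions of at least 500 bp and under 1 kb, scores of 100 or more were found in 31.1% on chrUn and 30.3% on chr1 to chr20 in MLP vs. C. The same shares were 36.7% and 34.5% in MLP vs. MLP-F, and 19.96% and 17.4% in MLP-F vs. C. Among regions of at least 1 kb and under 2 kb they were 47.8% and 42.1%, 56.5% and 51.9%, and 35.8% and 29.7% in the same order of lists. Among regions of 2 kb or more they were 78.3% and 57.6%, 70.8% and 67.1%, and 64.4% and 44.3%. The median score under 500 bp was lower on chrUn in MLP vs. MLP-F, at 65.5 against 71.6, and in MLP-F vs. C, at 69.2 against 70.5. From 500 bp to under 1 kb it was 67.45 against 67.65 in MLP-F vs. C. In all other classes and lists the chrUn median was the higher. Not every long region scored high. The chrUn region chrUn:56895313-56904040 of MLP-F vs. C was 8728 bp long with a score of 69.3, and chrUn:56531770-56536870 of MLP vs. MLP-F was 5101 bp long with a score of 57.7.

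**Figure D2:**
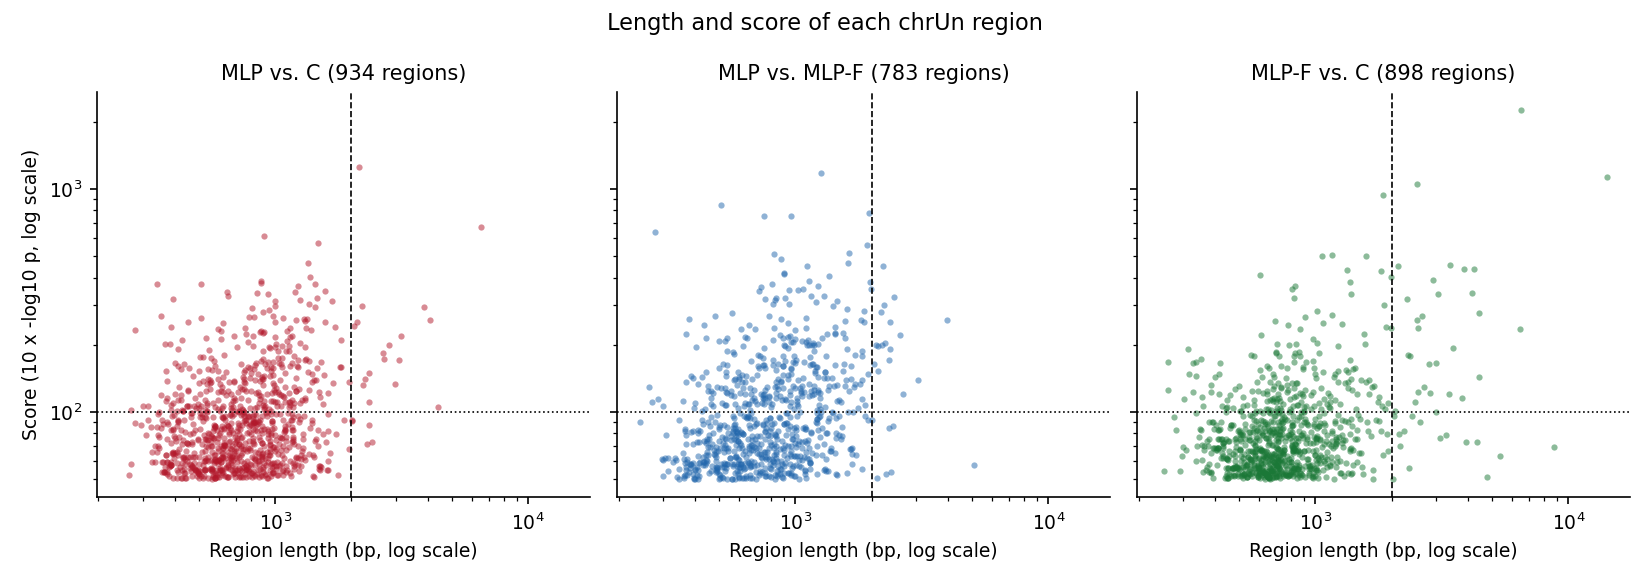
Each point is a chrUn region, with its length in bp and its score (10 times the −log10 of p) on log axes, in the lists MLP vs. C (934 regions), MLP vs. MLP-F (783) and MLP-F vs. C (898); the dashed line marks 2 kb and the dotted line a score of 100. To the right of the dashed line lie 23, 24 and 45 regions, and the region of 14245 bp in MLP-F vs. C is the longest.

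Of the 100 highest-scoring regions of MLP-F vs. C, 15 lay on chrUn, where no chromosome held more than 8, and chrUn held 1 of 100 in each of the lists with MLP first. Of the 1000 highest-scoring regions it held 67 in MLP-F vs. C, where it makes up 3.51% of the list and where chr1 held 90 and chr2 held 82. It held 31 in MLP vs. C and 26 in MLP vs. MLP-F, close to its 2.59% and 2.32% of those lists. Of the 15 regions, 5 lay within the window from 8 to 9 Mb of chrUn, and without that window 10 remained. Another 3 lay from 20 to 21 Mb, 2 lay from 29 to 30 Mb, and the other 5 lay in a window each.

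The highest score of the whole MLP-F vs. C list belonged to chrUn:8911407-8917910, 6504 bp long, with 2245. The region that overlaps it in MLP vs. C, chrUn:8911415-8917936, scored 673 and took place 120 of 35998, and MLP vs. MLP-F had no region there. It is part of the longest run of neighbouring regions on chrUn, chrUn:8862938-8923010, in which each region followed the last within 10 kb. Over these 60073 bp, 10 regions of MLP-F vs. C covered 46209 bp, or 76.9%, while no run of that list on chr1 to chr20 covered more than 12262 bp. MLP vs. C had 5 regions there that covered 18412 bp, each overlapping one of MLP-F vs. C, and MLP vs. MLP-F had none.

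The block also held the longest chrUn region of any list, chrUn:8893475-8907719, with 14245 bp and a score of 1131 in MLP-F vs. C (place 6 of 25578). Neither of the lists with MLP first held a region there. Next to it, chrUn:8909274-8911119 scored 941 in MLP-F vs. C and 159 in MLP vs. C. On the other side, chrUn:8889384-8893250 scored 436 in MLP-F vs. C and 294 in MLP vs. C. At the ends of the block, the regions chrUn:8862938-8865752 (164) and chrUn:8920323-8923010 (129) were listed in MLP-F vs. C and in no other list.

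**Figure D3:**
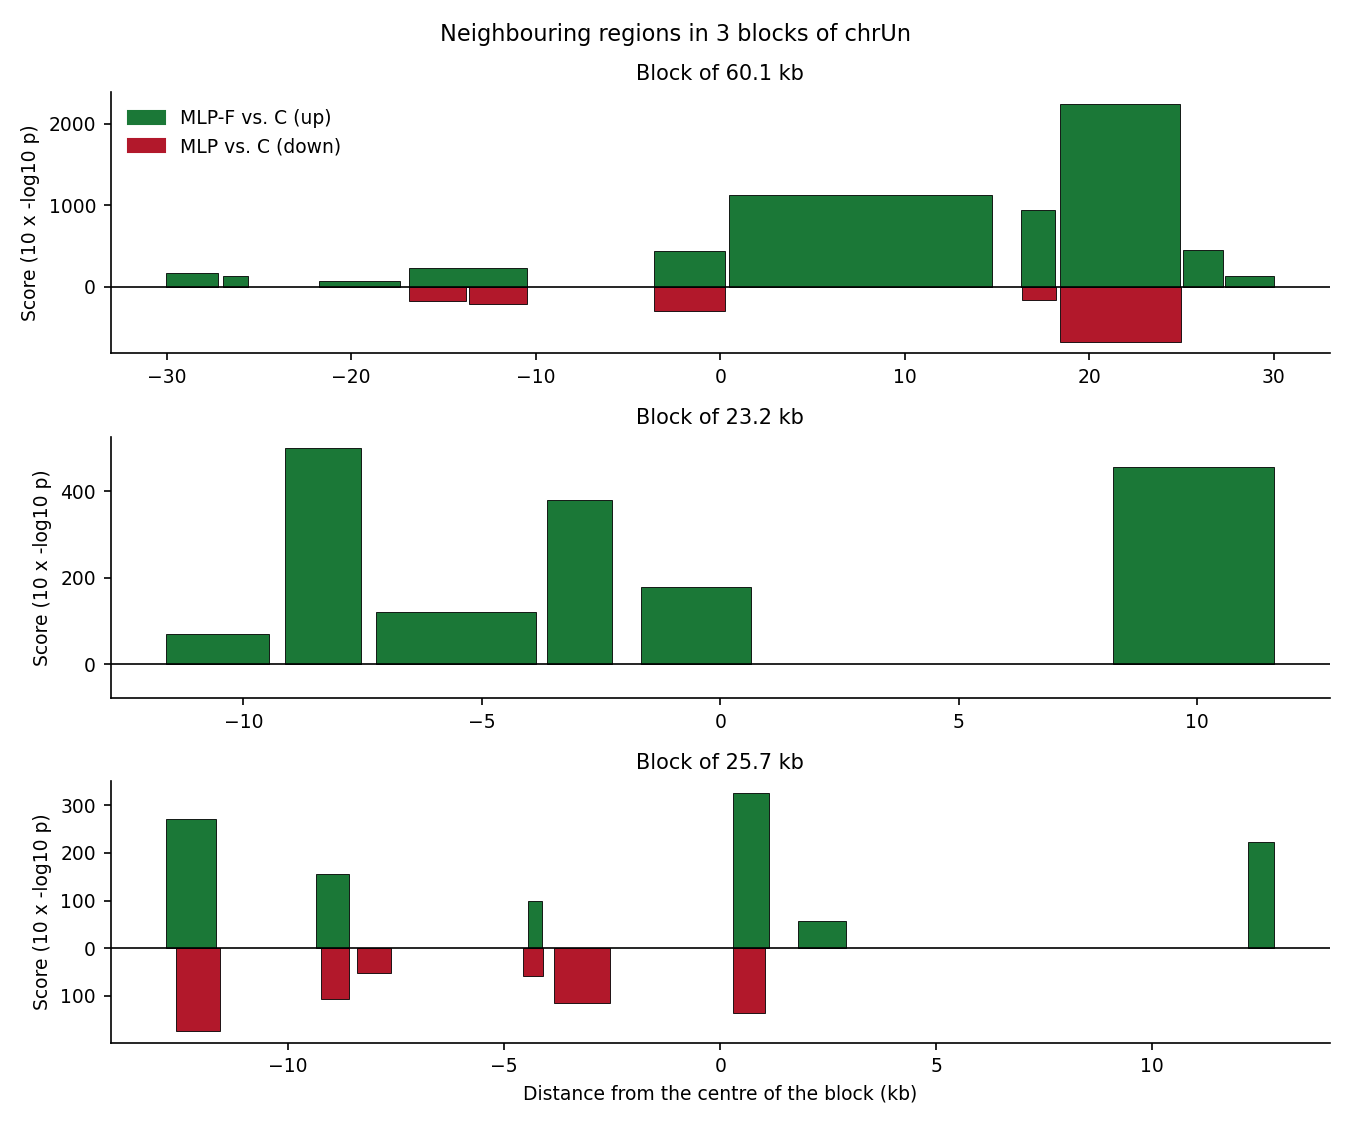
Regions in 3 blocks of chrUn, drawn by their distance in kb from the centre of the block, with bar width the region's length and bar height its score (10 times the −log10 of p), MLP-F vs. C upwards and MLP vs. C downwards; MLP vs. MLP-F had no region in these blocks. In the block of 60.1 kb the upward bars reach 2245 and the downward bars 673, the block of 23.2 kb has upward bars alone, and in the block of 25.7 kb each list has 6 regions.

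Other blocks differed in which lists they drew on. In chrUn:29160149-29183392, 6 regions of MLP-F vs. C covered 61.0% of 23244 bp with scores of up to 502, and neither other list had a region. The blocks chrUn:27866353-27882178 and chrUn:47878308-47897809 likewise held 6 regions each of MLP-F vs. C alone, with scores of up to 269 and 107. In chrUn:59317467-59336620, 8 regions of MLP-F vs. C covered 70.3% of 19154 bp with scores of up to 178, and MLP vs. C had 2 regions with scores of up to 67.4. In chrUn:20056087-20081741, both lists against C had 6 regions, with scores of up to 325 in MLP-F vs. C and 174 in MLP vs. C. In chrUn:51971660-51985389 the regions were of MLP vs. MLP-F, 6 in number and covering 49.2%, with scores of up to 160, while MLP vs. C had 2 and MLP-F vs. C none.

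Over all chrUn regions, 358 of MLP-F vs. C had another region of that list within 10 kb, 39.9% (36.7 to 43.1), against 28.4% over the whole list and at most 34.1% on a chromosome, chr19. In MLP vs. C there were 313, 33.5% (30.6 to 36.6), against 33.9%. In MLP vs. MLP-F there were 240, 30.7% (27.5 to 33.97), against 33.7%. In both of these lists the share of the whole list lies within the chrUn interval. At scores of at least 100 the shares within 10 kb were 18.5% on chrUn and 13.5% on chr1 to chr20 in MLP vs. C. They were 20.5% and 18.2% in MLP vs. MLP-F, and 22.2% and 7.65% in MLP-F vs. C. No interval was computed at this score limit. Within 1 kb, the shares on chrUn and on chr1 to chr20 were 9.21% and 5.52% in MLP vs. C, 7.28% and 6.50% in MLP vs. MLP-F, and 11.2% and 4.45% in MLP-F vs. C. Runs of at least 5 regions, each within 10 kb of the next, held 10.0% of the chrUn regions of MLP-F vs. C, 3.75% of MLP vs. C and 1.40% of MLP vs. MLP-F, against 0.843%, 1.32% and 2.85% on chr1 to chr20. Runs of at least 3 held 20.5%, 15.3% and 10.5% on chrUn, against 7.69%, 11.7% and 13.1%.

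In windows of 1 Mb, the median number of chrUn regions was 12 in MLP vs. C, 10 in MLP vs. MLP-F and 11 in MLP-F vs. C over 76 windows. The window from 20 to 21 Mb was the fullest, with 44 regions of MLP vs. C and 38 of MLP-F vs. C but only 13 of MLP vs. MLP-F. Of these, 26, 19 and 9 had scores of 100 or more. The windows from 52 to 53 Mb and from 51 to 52 Mb came next over the lists together. The former held 26, 28 and 20 regions in the order MLP vs. C, MLP vs. MLP-F, MLP-F vs. C, and the latter 18, 27 and 17. Over chr1 to chr20, the fullest window of a chromosome held 29 to 51 regions in MLP vs. C, 25 to 67 in MLP vs. MLP-F and 24 to 46 in MLP-F vs. C. The fullest chrUn window held 44, 28 and 38 regions in the same order, more than on 16, 2 and 19 of the 20. The spread of the window counts, as variance over mean, was 3.31, 2.75 and 4.14 on chrUn. The medians of the 20 chromosomes were 5.34, 4.58 and 4.80. The chrUn spread was thus below that of 19, 19 and 15 of the 20. A window of chrUn can join unrelated pieces, so this does not show how evenly the regions lie in the genome.

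In MLP vs. C the highest-scoring chrUn region was chrUn:4899299-4901449, with 1247 (place 52). It overlaps chrUn:4898892-4901416 of MLP-F vs. C, which scored 1051 and took place 8 in that list, and MLP vs. MLP-F had no region there. Of the 10 highest-scoring regions of MLP vs. C, 7 overlapped a region of MLP-F vs. C and the other 3 a region of MLP vs. MLP-F. Over all regions of the list, at any score, these shares were 22.6% and 39.4%. The shares among the highest-scoring regions of chr1 to chr20 were not computed. From 20 to 21 Mb came 5 of the 10 chrUn regions. Among them was chrUn:20142672-20144147, which scored 573 in MLP vs. C and overlapped a region of 433 in MLP-F vs. C. The region chrUn:8638018-8638918 scored 616 in MLP vs. C and 414 in MLP vs. MLP-F.

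In MLP vs. MLP-F the highest-scoring chrUn region was chrUn:4778805-4780069, with 1179 (place 57), and no other list had a region there. The next, chrUn:40831352-40831858, scored 849 in MLP vs. MLP-F and 374 in MLP vs. C. Of the 10 highest-scoring regions of MLP vs. MLP-F, 7 were also in MLP vs. C and none overlapped MLP-F vs. C. Over all regions of the list these shares were 42.1% and 1.27%. The region chrUn:64797752-64798629 was among the top 10 of both lists, with 487 in MLP vs. MLP-F and 378 in MLP vs. C. In MLP-F vs. C, 5 of the 10 highest-scoring regions overlapped MLP vs. C, and none overlapped MLP vs. MLP-F. Over all regions of the list these shares were 31.8% and 1.67%. With shares of 1.27% and 1.67%, none of 10 is near what the whole lists give.

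The overlap of the lists, counted from 1 shared base pair, was set beside the same share over all regions of a list. Of the chrUn regions of MLP vs. C, 330 overlapped MLP vs. MLP-F, 35.3% (32.3 to 38.5), against 39.4% over the list. From the side of MLP vs. MLP-F the 330 were 42.1%, against 42.1%. All 330 had the same start and end in both lists, as did all 13322 overlapping regions on chr1 to chr20, and no region did so in the other pairs of lists.

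With C as the shared second library, the overlap differed by the list from which it was counted. Such shares depend on the sizes of both lists. MLP vs. C and MLP-F vs. C held 934 and 898 regions on chrUn, but 34126 and 24305 on chr1 to chr20. With overlapping regions joined, loci in both of these lists and not the third were 11.8% on chrUn and 10.6% on chr1 to chr20. Of the chrUn regions of MLP vs. C, 256 overlapped MLP-F vs. C, 27.4% (24.6 to 30.4), against 22.6% over the list and at most 26.3% on a chromosome. Of those of MLP-F vs. C, 252 overlapped MLP vs. C, 28.1% (25.2 to 31.1), against 31.8% over the list and at least 29.9% on a chromosome. Few regions of MLP vs. MLP-F overlapped MLP-F vs. C. On chrUn there were 13, or 1.66%, against 1.27% over the list, and from the side of MLP-F vs. C the 13 were 1.45%, against 1.67%. Among long regions, 14 of the 23 of MLP vs. C overlapped MLP-F vs. C (60.9%, against 26.6% of the shorter ones). Of these 14, 4 lay in the block chrUn:8862938-8923010. From the other side, 16 of the 45 of MLP-F vs. C overlapped MLP vs. C (35.6%, against 27.7%). Between the lists with MLP first the share was lower among long regions. There 4 of the 23 of MLP vs. C overlapped MLP vs. MLP-F (17.4%, against 35.8% of the shorter ones), and 4 of the 24 of MLP vs. MLP-F overlapped MLP vs. C (16.7%, against 43.0%). Of the long regions of MLP vs. MLP-F, 2 overlapped MLP-F vs. C (8.33%, against 1.45%). None of the 45 of MLP-F vs. C overlapped MLP vs. MLP-F, against 1.52% of the shorter ones. These shares were not computed for long regions of chr1 to chr20, so they are not shown to be particular to chrUn.

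On chrUn, regions found in a second list had higher scores in the first. These medians were not computed for chr1 to chr20, so the difference is not shown to be particular to chrUn. In MLP vs. C the median score was 98.1 for the 330 regions also in MLP vs. MLP-F and 74.9 for the other 604. In MLP-F vs. C it was 83.3 for the 252 regions that overlapped MLP vs. C and 68.8 for the other 646.

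When overlapping regions of the 3 lists were joined, chrUn held 2024 loci and chr1 to chr20 held 68971. MLP-F vs. C alone accounted for 644 chrUn loci, 31.8% (29.8 to 33.9), against 24.0% on chr1 to chr20 together. The highest share among chr1 to chr20 was 27.6%. Such shares also depend on the sizes of the lists. MLP-F vs. C gave 898 of the 2615 chrUn regions and 24305 of the 90102 regions on chr1 to chr20. MLP vs. MLP-F alone accounted for 451 (22.3% against 26.6%) and MLP vs. C alone for 359 (17.7% against 19.5%). MLP vs. C with MLP vs. MLP-F accounted for 319 loci, 15.8% against 18.8% and at least 16.4% on each of chr1 to chr20. MLP vs. C with MLP-F vs. C accounted for 238 (11.8% against 10.6%).

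**Figure D4:**
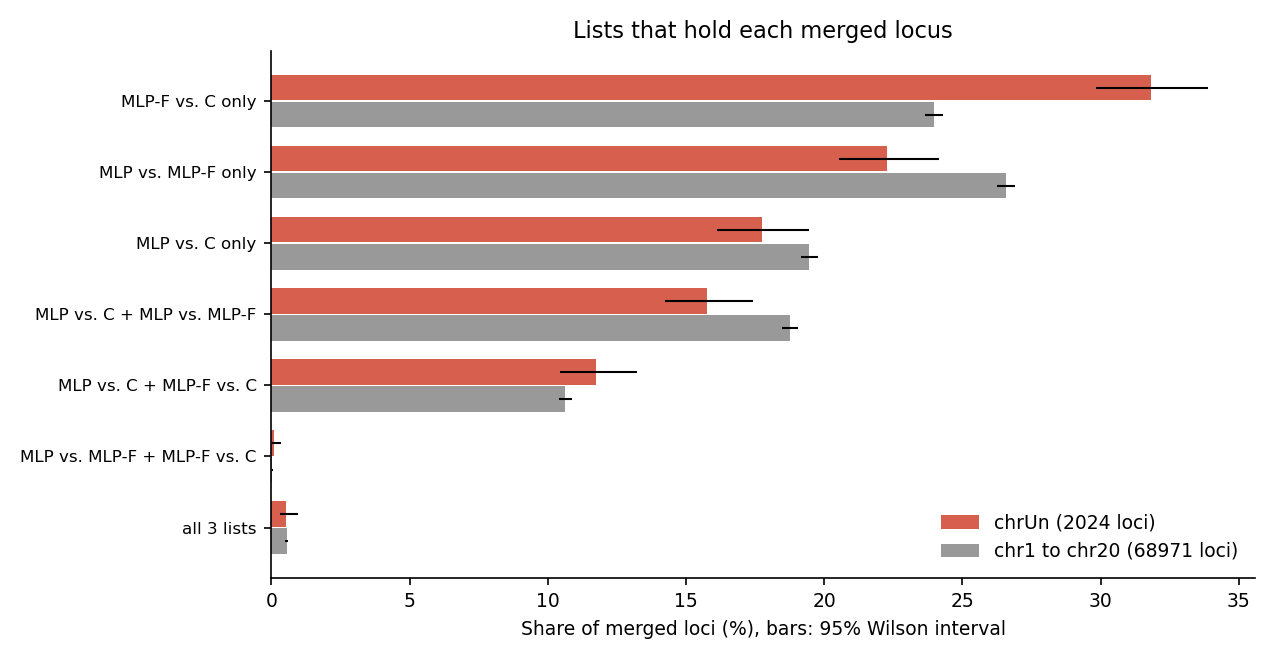
Bars give the percent of merged loci found in each combination of lists, for the 2024 loci of chrUn and the 68971 of chr1 to chr20, with 95% Wilson intervals. MLP-F vs. C alone is the most common combination on chrUn, at 31.8%, while on chr1 to chr20 it is MLP vs. MLP-F alone, at 26.6%. These shares depend on the sizes of the lists.

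A region in all 3 lists was found at 11 chrUn loci, 0.543% against 0.551%. MLP-F is the first library in one of these lists and the second in another. At chrUn:17391611-17392956 the scores were 237 in MLP vs. C, 322 in MLP vs. MLP-F and 202 in MLP-F vs. C. At chrUn:14790789-14792363 they were 349, 131 and 59.1 in the same order. The other 9 loci had scores of at most 143 in MLP-F vs. C.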

How the data were processed

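MBD-seq libraries of newborn rat liver, 1 pool for each of C, MLP and MLP-F, were analysed as 3 deposited region lists. By the methods, the authors used Bowtie to align to rn4 and retained at most 1 position for a read pair, and MACS then compared the libraries in pairs. CASAVA, Bowtie and rn4 also stand in the submitters' processing notes. Tool versions were not given in the sources used here, and the depth of each library is not in the lists. The score in the deposited lists is 10 times the −log10 of the authors' p. A best alignment in repeated sequence can place reads of several copies on one.

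Starts were converted to 1-based positions. Counts, lengths, scores, distances, overlaps from 1 bp, and merged loci were computed for chrUn and for chr1 to chr20 (Python 3.11.15, numpy 2.4.6, pandas 2.3.3, SciPy 1.17.1, matplotlib 3.10.9) with scripts checked on simulated lists. Regions were named by rule: the 10 highest-scoring and 5 longest of each list, the 10 highest loci in all 3 lists and the 3 fullest windows of 1 Mb. The blocks, and other regions within them, were chosen after their values were seen. Members and lists were chosen with earlier results of these data known. Alternatives were other score, distance and overlap limits, and leaving out windows of chrUn. The RefSeq tables at hand are of another assembly, so no gene names or sequences were used.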

Additional observations from a re-analysis of the deposited data

How the results depend on the processing

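Across 28 results, 77 alternative values were computed. Of these, 36 stayed within the counting interval of the reported value or, for the 100 highest, within a set factor of it. The direction of the difference between chrUn and chr1 to chr20 was kept in 65. For the share of the list and the 100 highest, chrUn was set against the median chromosome, whatever its length. These counts do not measure robustness. Other distances, lengths and score limits measure another quantity, and the reciprocal limit cannot change regions with the same start and end. Values below are in the order MLP vs. C, MLP vs. MLP-F, MLP-F vs. C. The share of each list on chrUn was 2.91%, 2.56% and 4.61% at scores of at least 100, and 3.46%, 2.55% and 7.83% at 200. Among the 5000 highest scores it was 3.14% in MLP vs. C and 4.58% in MLP-F vs. C. In MLP-F vs. C all 3 of these settings put chrUn above the median chromosome, and the whole list put it below. Per Mb of span, the whole list put chrUn above 17 of the 20 chromosomes. The share with a close neighbour was 9.21%, 7.28% and 11.2% within 1 kb, 93.2%, 88.6% and 91.5% within 100 kb, and 18.5%, 20.5% and 22.2% within 10 kb at scores of at least 100. In MLP vs. C all 3 settings, and in MLP vs. MLP-F the first and last, turned chrUn from below to above chr1 to chr20. MLP-F vs. C stayed above. At scores of at least 100 the median lengths were 877, 933 and 872 bp on chrUn, against 742, 837 and 716 bp on chr1 to chr20. Scores of at least 200 were held by 8.46%, 11.6% and 5.23% of chrUn regions, against 6.23%, 10.4% and 2.23% on chr1 to chr20.

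In this paragraph the share on chr1 to chr20 follows that on chrUn. With both lists at scores of at least 100, MLP vs. C overlapped MLP vs. MLP-F in 31.1% against 34.6%. It overlapped MLP-F vs. C in 18.5% against 10.5%. MLP vs. MLP-F overlapped MLP vs. C in 31.9% against 31.6% and MLP-F vs. C in 0.315% against 0.340%. MLP-F vs. C overlapped MLP vs. C in 24.9%, now above chr1 to chr20 at 24.1%, and MLP vs. MLP-F in 0.444% against 0.855%. With a reciprocal overlap of 50%, MLP vs. C and MLP-F vs. C met in 23.6% of the former and 24.5% of the latter, while the overlap between MLP vs. MLP-F and the list MLP-F vs. C was 0.894% and 0.779% of each. Within 1 kb these shares were 31.2%, 32.1%, 4.21% and 3.79%. The remaining changes of direction were in MLP vs. MLP-F. Its overlap with MLP vs. C fell below chr1 to chr20 within 1 kb, at 44.2% against 44.7%, and its overlap with MLP-F vs. C did so at the reciprocal limit and at scores of at least 100.

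The next settings were chosen after seeing the data. Regions of 3 kb or more were 0.642%, 0.383% and 2.34% on chrUn, against 0.1055%, 0.224% and 0.0823% on chr1 to chr20. Without the window from 8 to 9 Mb, 4.19% of the chrUn regions of MLP-F vs. C were 2 kb or longer, against 0.436% on chr1 to chr20. In that setting 10 were among the 100 highest, against 4.5 for the median chromosome. Loci in MLP-F vs. C alone were 23.9% at scores of at least 100, against 15.9% on chr1 to chr20. The cause of these changes was not tested. Differences between lists cannot be separated from depth, litter or pooling, since each group is 1 library. Gaps and joins within chrUn are not in the lists, so densities and distances there are approximate.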
